A study of Mus musculus with 4 samples.

Results

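Metallothioneins and the genes that move and sense zinc were followed in the mesenchyme of mouse molar tooth germs with and without Msx1. The set holds 8 genes of 22072 gene names in the tables. They are the metallothionein genes Mt1, Mt2 and Mt3, the zinc sensor gene Mtf1, the zinc exporter gene Slc30a1 and the zinc importer genes Slc39a8, Slc39a10 and Slc39a14. They were taken by gene name, and the set was chosen by earlier FPKM values of these same libraries, so its levels and differences are given as a description with no test.

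The libraries were Msx1-/- (mutant) upper molar, Msx1+/- (control) upper molar, Msx1-/- lower molar and Msx1+/- lower molar, all at embryonic day 14 on a mixed background. Msx1 is a homeobox gene that the mesenchyme needs for tooth growth past the bud. Every control animal was heterozygous for the Msx1 mutation, although the series title speaks of wild type, and the allele is not named. Each group was 1 library made from laser-captured mesenchyme, and the series' design text tells of tissue from 3 pairs being combined before RNA was taken. No group has a second library, so no spread within a group can be given, and the labels leave it unstated if the jaws share embryos.

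Zinc is a structural or catalytic part of many proteins, and cells keep very little of it free. Metallothioneins are small cysteine-rich proteins that bind zinc and copper and give zinc up again when it is short. When free zinc rises, Mtf1 binds metal response elements in promoters and turns on Mt1, Mt2 and Slc30a1. The SLC30 family moves zinc out of the cytoplasm, either out of the cell or into organelles, and the SLC39 family moves it into the cytoplasm. Mt1 and Mt2 are also induced by glucocorticoids, inflammatory cytokines and oxidative stress.

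The promoters of Mt1 and Mt2 are shown because these genes had the widest differences of the set. Each line gives the 250 bases before the RefSeq gene start on build GRCm38.p6, plus strand, 5′ to 3′. Capitals mark each match to the core of the metal response element, searched as TGCACNC and TGCGCNC on both strands.
Mt1, chr8:94178839-94179088: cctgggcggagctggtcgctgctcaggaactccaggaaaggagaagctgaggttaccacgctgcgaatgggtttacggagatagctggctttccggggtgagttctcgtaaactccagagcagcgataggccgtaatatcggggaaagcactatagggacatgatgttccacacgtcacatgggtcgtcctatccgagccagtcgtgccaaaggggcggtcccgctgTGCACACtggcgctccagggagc
Mt2, chr8:94172368-94172617: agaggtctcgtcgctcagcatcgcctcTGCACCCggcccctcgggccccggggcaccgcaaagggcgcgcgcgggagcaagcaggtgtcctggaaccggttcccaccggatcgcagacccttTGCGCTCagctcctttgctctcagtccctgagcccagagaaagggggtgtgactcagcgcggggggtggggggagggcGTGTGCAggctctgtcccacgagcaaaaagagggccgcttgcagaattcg
The Mt1 window held 1 match, starting 23 bases before the start. The Mt2 window held 3, starting 223, 128 and 50 bases before it, and none of these overlapped another. Among 32851 RefSeq promoter windows of the same length, 21.4% held at least 1 match and 1.26% held at least 3. Slc30a1 had 1 match, 43 bases before its start, and 1 of the 2 windows of Slc39a8 had 1. No match lay in the windows of Mt3, Mtf1 or Slc39a10. A match is a run of letters and was not measured as a binding site. Bases past each RefSeq start or further upstream were not searched, so the counts hold for these windows alone. They do not give the number of elements of a gene and do not rank Mt1 against Mt2.

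Levels are given as FPKM, the fragments of a transcript divided by its length in kilobases and by the library's total of mapped fragments, summed over the transcripts of a gene. Differences are of log2(FPKM + 1), mutant minus control, a scale that understates the change of weakly expressed genes. A gene was counted as higher or lower where that difference was at least 1 in size, and this was done for the 10537 genes that averaged 1 FPKM or more. Of the 8 genes, 7 passed that mean and Mt3 did not. Over all genes the median difference stood at -0.03 for upper molars and -0.39 for lower molars, so differences in lower molars are also given relative to that median.

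Mt1, Mt2 and Slc39a10 were lower in the mutant in both jaws, and none of the 8 genes was higher in either. Of all genes compared, 1.59% were counted as lower in both jaws, 3.26% in upper molars and 9.43% in lower molars. Those counted as higher were 0.399% in both jaws, 1.07% in upper and 0.864% in lower molars. Counts over all genes in lower molars depend on scaling, with 91 genes higher and 994 lower as deposited, against 208 higher and 371 lower after rescaling by median of ratios. After that rescaling the same 3 genes of the set were counted in each jaw, beside 1.21% of all genes counted as lower in both jaws, 3.17% in upper and 3.52% in lower molars. Because these are bulk samples, fewer cells that carry an RNA and less of that RNA per cell cannot be told apart.

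**Figure D1:**
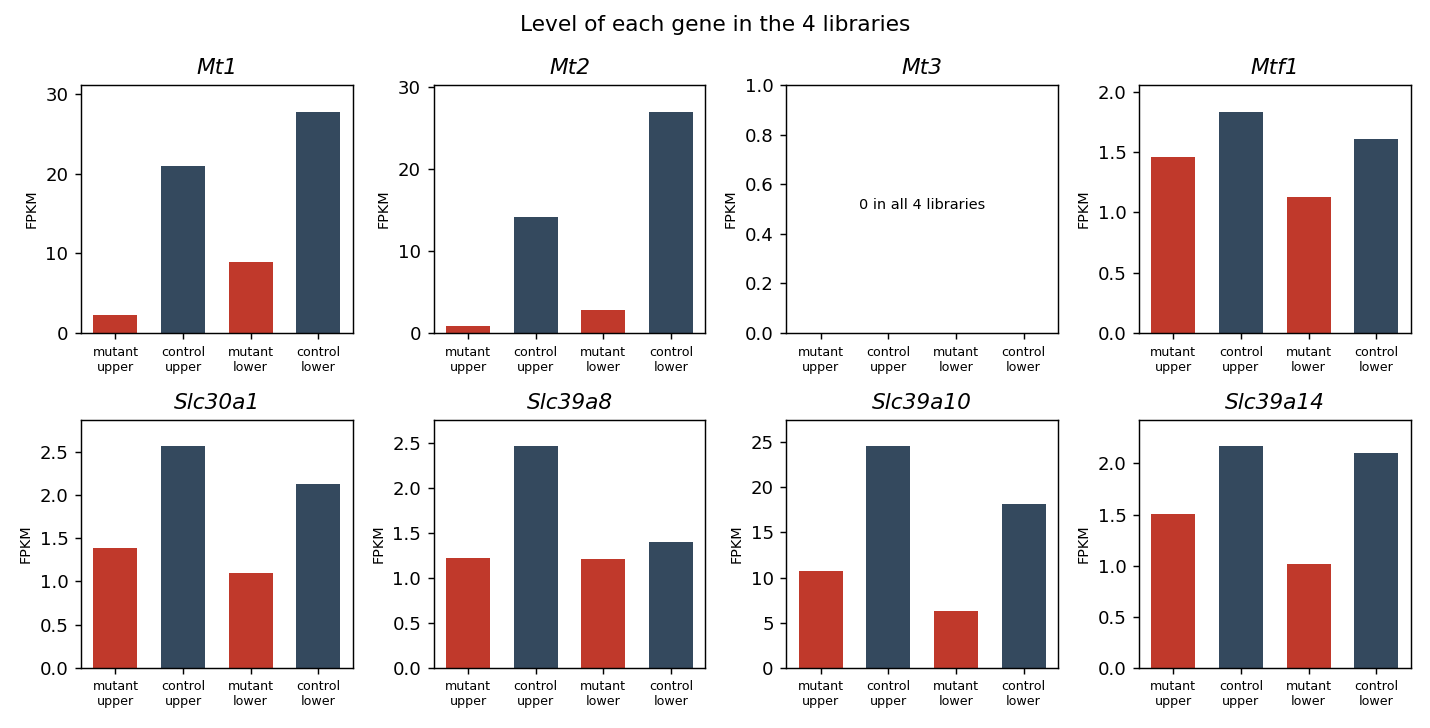
FPKM of each of the 8 genes, with mutant libraries in red and control libraries in dark blue, upper molars left of lower molars; each bar is 1 library and each panel has its own scale from 0. Mt1 and Mt2 bars are lowest in the mutant upper molar, at 2.26 and 0.890 FPKM, and Mt3 is at 0 in every library.

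Mt2 encodes metallothionein-2, 1 of the forms made in most tissues. It was at 0.890 FPKM in mutant upper molars, against 14.2 FPKM in control upper molars, and at 2.77 FPKM in mutant lower molars, against 27.0 FPKM in control lower molars. Both mutant libraries were below both control libraries, and the mutant level was 6.27% of the control level in upper molars and 10.2% in lower molars. The log2 difference was -3.01 for upper and -2.89 for lower molars, or -2.98 and -2.51 relative to the median of all genes. Counted from the lowest, Mt2 stood at place 17 of 10537 genes in upper molars and place 22 in lower molars.

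Mt1, the neighbouring gene for the other widely made form, showed the same order of genotypes. It was at 2.26 FPKM in mutant upper molars, against 21.0 FPKM in control upper molars, and at 8.90 FPKM in mutant lower molars, against 27.8 FPKM in control lower molars. The mutant level was 10.8% of the control level in upper molars and 32.0% in lower molars. Its log2 difference was -2.76 for upper molars and -1.54 for lower molars, where it was -1.15 relative to the median of all genes. The places from the lowest were 24 in upper and 215 in lower molars.

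The metallothionein mRNAs are short, which leaves few sequenced bases behind each value and makes FPKM sensitive to the length correction. Deposited coverage times transcript length estimates the aligned bases. Coverage was a constant multiple of FPKM within a library, so this product is no separate measurement. For Mt1 it was 1331 bases in mutant upper molars, against 11914 in control upper molars, and 4456 in mutant lower molars, against 12251 in control lower molars. For Mt2 the same product was 537 bases in mutant upper molars, against 8253 in control upper molars, and 1422 in mutant lower molars, against 12201 in control lower molars. The smallest of these values is the Mt2 level in mutant upper molars, so its fold is the least precise of the set. The tables hold no read counts, so no counting interval is given.

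Reads of Mt1 and Mt2 may be shared, since the coding sequences are alike. The GENCODE M21 transcripts paired with the table entries, 549 bases for Mt1 and 511 for Mt2, had a longest identical run of 20 bases and shared 0 runs of 25 bases. No source used here names the read length, and matches with mismatches or to other copies in the genome were not searched. The sum of both genes, which does not depend on how reads were split between them, was 3.15 FPKM in mutant upper molars, against 35.2 FPKM in control upper molars. In lower molars the sum was 11.7 FPKM in the mutant, against 54.9 FPKM in the control. The sum was thus lower in the mutant of each jaw, as each gene was on its own.

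The balance between the genes also differed. Mt1 was 2.54 times Mt2 in mutant upper molars, against 1.48 times in control upper molars, and 3.22 times in mutant lower molars, against 1.03 times in control lower molars. Mt1 was the higher of the pair in all 4 libraries, and its ratio to Mt2 was higher in the mutant of each jaw.

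The jaws differed in Mt1 within the mutant. The upper minus lower difference was -1.60 for Mt1 in the mutant and -0.39 in the control. For Mt2 it was -0.995 in the mutant, just short of the limit, and -0.88 in the control. Of all genes, 0.418% were counted as lower in upper molars of the mutant as deposited and 0.883% after rescaling by median of ratios, under which Mt2 was counted as well (-1.22). In the control 0.218% were, and none of the 8 genes was. The genotype difference itself was more negative in upper than in lower molars by 1.21 for Mt1 and 0.11 for Mt2, and 1.31% of all genes were more negative by at least 1. After rescaling by median of ratios this value was -1.59 for Mt1 and -0.43 for Mt2, beside 2.67% of all genes. For the sum of Mt1 and Mt2 it was -0.98 as deposited, so the count for Mt1 as deposited is not kept once reads are pooled over the pair.

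Mt1 (chromosome 8, 96702989 to 96704227, build mm9) starts 6.47 kb from the start of Mt2 (96696518 to 96697467) in a cluster with Mt3 and Mt4. Mt3 (96676507 to 96678048), known from brain, was listed at 0 in all 4 libraries, as was Mt4, known from stratified epithelia. Neighbours were searched by the left end of each gene on the chromosome, whatever its strand. Apart from the metallothioneins, 1 gene with its left end within 100 kb of that of Mt1 passed the mean of 1 FPKM. This was the nuclear pore gene Nup93, which was at 5.74 FPKM in mutant upper molars, against 9.03 FPKM in control upper molars, and 2.40 FPKM in mutant lower molars, against 7.65 FPKM in control lower molars. Its differences of -0.57 for upper molars and -1.35 for lower molars put it past the limit in lower molars alone. On this scale they were less negative than those of Mt1 and Mt2 in each jaw. The added 1 FPKM weighs more on Nup93, however, which was the weakest of these 3 genes in the controls. By FPKM alone, its mutant level in lower molars was about the same share of the control level as that of Mt1 (32.0%).

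**Figure D2:**
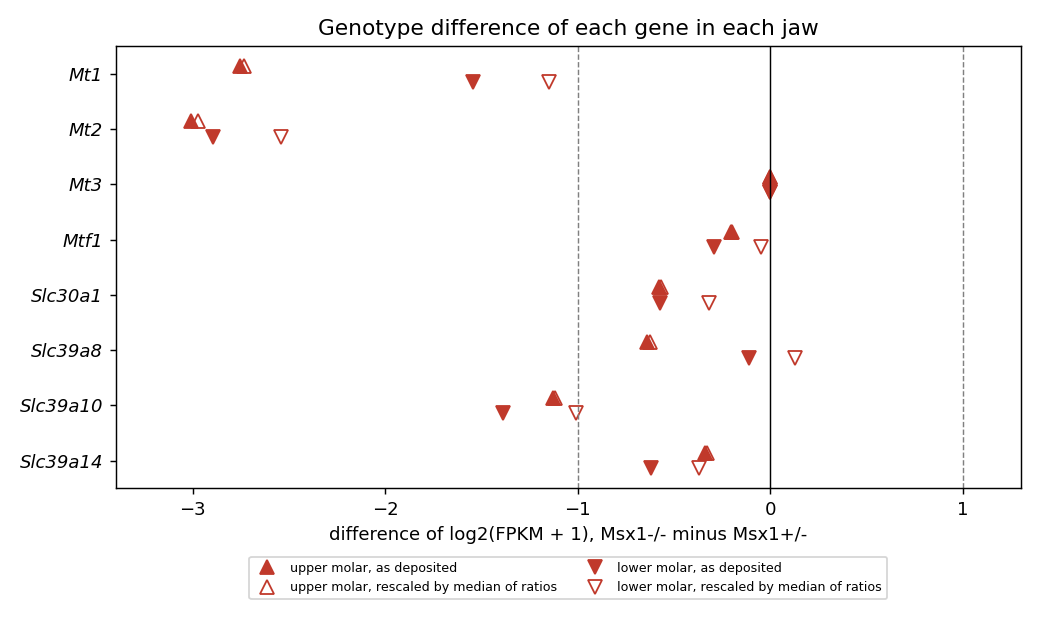
Mutant minus control difference of log2(FPKM + 1) for each of the 8 genes, with upward triangles for upper and downward triangles for lower molars, filled for values as deposited and open after rescaling by median of ratios; dashed lines mark a difference of 1 in size. Mt1 and Mt2 lie left of -1 in both jaws on either scale, and Slc39a10 lies close to -1 in lower molars after rescaling (-1.01).

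The sensor gene Mtf1 (chromosome 4, 124479793 to 124527044) was at 1.46 FPKM in mutant upper molars, against 1.84 FPKM in control upper molars, and 1.13 FPKM in mutant lower molars, against 1.61 FPKM in control lower molars. Both mutant values were below both control values, but the differences were small, at -0.21 in upper and -0.29 in lower molars. Relative to the median of all genes the value for lower molars was 0.10. Mtf1 was not counted in any comparison.

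Slc30a1 encodes the exporter ZnT1 of the cell surface, a textbook Mtf1 target (chromosome 1, 193730660 to 193737126). It was at 1.39 FPKM in mutant upper molars, against 2.56 FPKM in control upper molars, and 1.10 FPKM in mutant lower molars, against 2.12 FPKM in control lower molars. The mutant level was 54.1% of the control level in upper and 51.9% in lower molars, and the log2 differences were -0.58 and -0.57. Slc30a1 was thus not counted in either jaw, and on this scale the added 1 FPKM takes up much of the change of a gene this low.

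Slc39a10 encodes the importer ZIP10 and was among the most abundant genes of the set (chromosome 1, 46864389 to 46910354). It was at 10.7 FPKM in mutant upper molars, against 24.6 FPKM in control upper molars, and 6.33 FPKM in mutant lower molars, against 18.2 FPKM in control lower molars. Both mutant libraries were below both control libraries, at 43.6% of the control level in upper and 34.8% in lower molars. Its difference was -1.13 for upper molars and -1.39 for lower molars, where it was -1.002 relative to the median of all genes. It stayed negative under each scaling tried, but it was not counted in lower molars after the upper quartiles (-0.92) or the FPKM totals (-0.95) of the libraries were made equal. With a transcript model of 4961 bases and an estimated 29009 to 127396 aligned bases per library, it has far more sequence behind it than the metallothioneins. In mouse liver and cultured cells Mtf1 is known to repress this gene when zinc is high.

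Slc39a8 encodes ZIP8, which carries zinc, manganese and iron into cells (chromosome 3, 135488455 to 135551536). It was at 1.23 FPKM in mutant upper molars, against 2.47 FPKM in control upper molars, and 1.22 FPKM in mutant lower molars, against 1.397 FPKM in control lower molars. The control upper library stood above the other 3, which lay close together. The differences were -0.64 in upper and -0.11 in lower molars, and the value for lower molars was 0.27 relative to the median of all genes and 0.13 after rescaling by median of ratios, so its sign in lower molars depends on scaling.

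Slc39a14 encodes ZIP14, which carries the same metals (chromosome 14, 70703274 to 70751231). It was at 1.51 FPKM in mutant upper molars, against 2.17 FPKM in control upper molars, and 1.02 FPKM in mutant lower molars, against 2.10 FPKM in control lower molars. Both mutant values were below both control values, with differences of -0.34 in upper and -0.62 in lower molars, and the gene was not counted.

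In order of level, Slc39a10, Mt1 and Mt2 led the set in both control libraries, with Slc39a10 first in upper and Mt1 first in lower molars. Mtf1, Slc30a1, Slc39a8 and Slc39a14 lay between 1.397 and 2.56 FPKM in the controls, and their order there cannot be resolved with 1 library per group. In mutant upper molars Slc39a10 led and Mt2 stood at place 7 of the 8, below all genes of the set except Mt3. Among all genes compared, Mt2 was higher than 1.499% of them in mutant upper molars, against 80.0% in control upper molars, and higher than 36.2% in mutant lower molars, against 89.9% in control lower molars. Mt1 was higher than 20.5% in mutant upper molars, against 86.8% in control upper molars, and higher than 76.9% in mutant lower molars, against 90.3% in control lower molars.

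**Figure D3:**
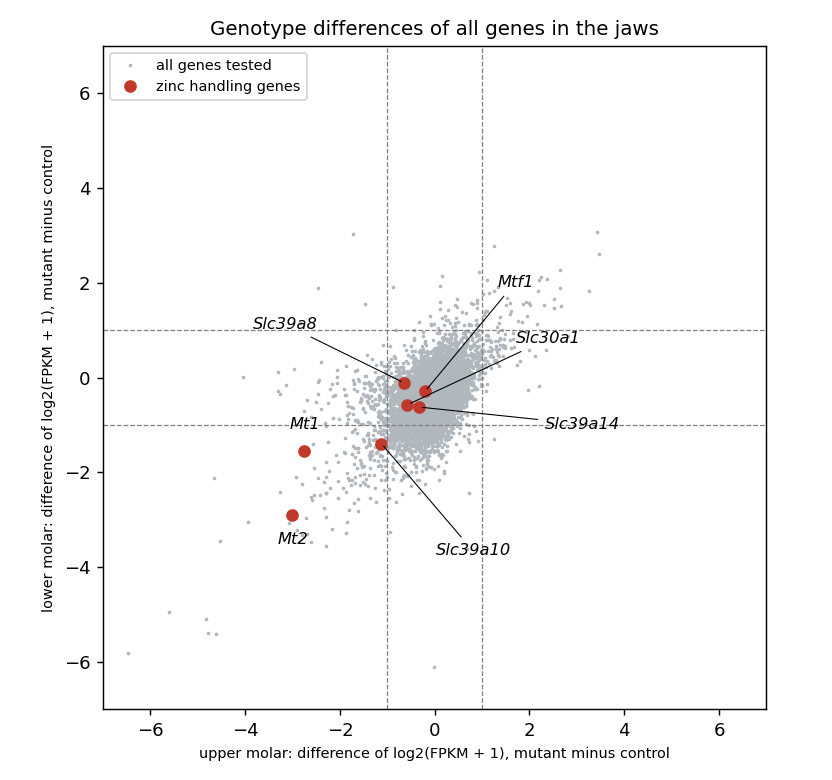
Genotype difference of log2(FPKM + 1) in upper molars (horizontal) and lower molars (vertical) for 10537 genes in grey, with the 7 compared genes of the set in red; dashed lines mark a difference of 1 in size. Mt1, Mt2 and Slc39a10 lie in the lower left corner beyond both lines, and the other 4 lie within the main cloud.

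Slc39a8 and Slc39a14 have 3 RefSeq transcript models each in the tables, and the estimated split between models varied more than the totals did. For Slc39a8 the model NM_026228 held all but a trace of the 1.23 FPKM in mutant upper molars. In control upper molars it held 26.0%, with 65.6% in NM_001135149 and 8.35% in NM_001135150. In lower molars NM_001135149 held all but a trace in both genotypes. These models start at different places, and in GENCODE M21 each has at least 1 exon that the others lack.

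For Slc39a14 the models NM_144808 and NM_001135151 each carry an exon of 170 bases that the other lacks, at a gene known to splice alternative exons of this kind. NM_001135151 held 67.0% in mutant upper molars, against 37.0% in control upper molars, and 0.0335% in mutant lower molars, against 44.1% in control lower molars. In mutant lower molars the third model, NM_001135152, held 30.8%, against 2.64% in control lower molars. The shares went opposite ways in the jaws. All models of these genes had a coverage below 2 reads per base in every library, and the software's error of the split was not analysed here.

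**Figure D4:**
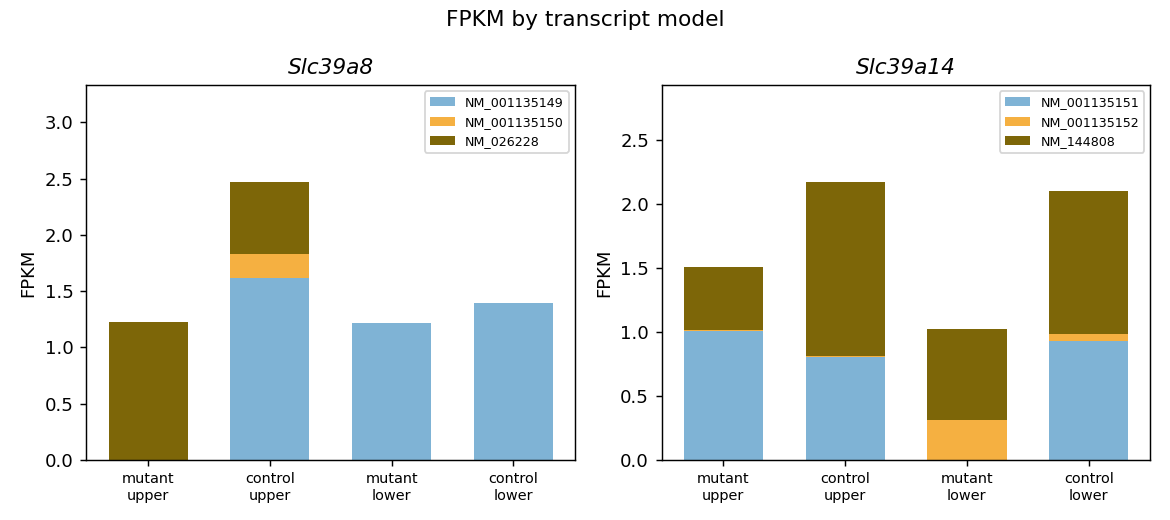
FPKM of Slc39a8 (left) and Slc39a14 (right) in each library, stacked by RefSeq transcript model; each bar is 1 library. The Slc39a8 signal sits on NM_026228 in mutant upper molars and on NM_001135149 in both lower molar libraries.

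The other zinc transporters served as a setting for the set. Of 10 SLC30 genes 6 passed the mean of 1 FPKM, and 0 were counted in any comparison, as deposited or after rescaling by median of ratios. Slc30a9 reached the highest level of them, 7.58 FPKM in mutant upper molars. Leaving out Slc30a1, the differences of the other 5 lay between -0.13 and 0.14 in upper molars and between -0.87 and -0.41 in lower molars. The median of the SLC30 genes that passed was -0.02 in upper and -0.52 in lower molars, close to that of all genes.

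Of 14 SLC39 genes 10 passed, and Slc39a10 was the 1 gene counted. The 7 that are not in the set, among them the Golgi and endoplasmic reticulum transporter genes Slc39a7 and Slc39a13, lay between -0.27 and 0.06 in upper molars and between -0.63 and 0.04 in lower molars. The SLC39 median was -0.17 in upper and -0.45 in lower molars. Slc39a4, the intestinal importer gene, Slc39a12 and Slc30a2 were listed at 0 in all 4 libraries.

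**Figure D5:**
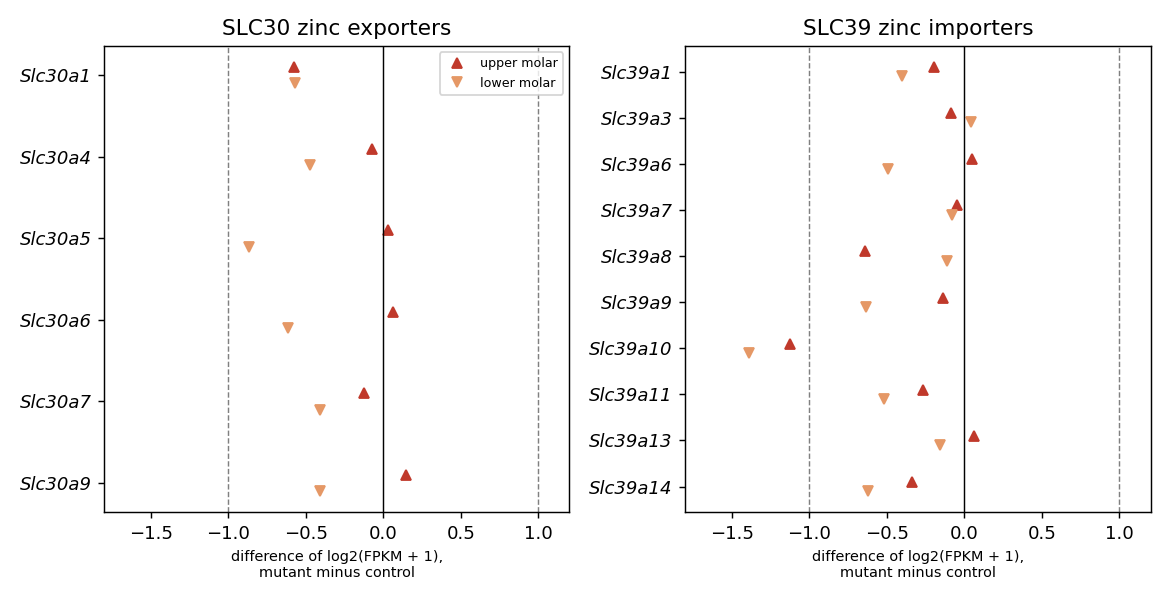
Mutant minus control difference of log2(FPKM + 1) for the 6 SLC30 genes (left) and 10 SLC39 genes (right) with a mean of at least 1 FPKM, upper molars as upward and lower molars as downward triangles; dashed lines mark a difference of 1 in size. Slc39a10 is the 1 gene beyond -1, in both jaws.

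Genes tied to Mtf1 in mouse studies were looked at as a list of 9, all of which passed. The list pools genes that Mtf1 turns on, such as Mt1, Mt2 and Slc30a1, with Slc39a10, which it is known to repress. Its counts and medians therefore do not read as 1 direction of Mtf1 activity. In both jaws 3 were lower and 0 higher, and these were again Mt1, Mt2 and Slc39a10, so the list adds no further gene there. In lower molars 6 of 9 were lower as deposited and 5 after rescaling by median of ratios, beside 9.43% and 3.52% of all genes. These counts include Mt1, Mt2 and Slc39a10, which belong to the set chosen on these values. The additional genes were Sepw1, which encodes a selenoprotein, Gclc, the catalytic subunit of glutathione synthesis, and the growth factor gene Pgf, of which Sepw1 was lost on rescaling. Sepw1 was at 350.6 FPKM in mutant upper molars, against 314.7 FPKM in control upper molars, and 146.9 FPKM in mutant lower molars, against 346.3 FPKM in control lower molars. Gclc was at 2.52 FPKM in mutant upper molars, against 5.14 FPKM in control upper molars, and 1.05 FPKM in mutant lower molars, against 4.85 FPKM in control lower molars. The median of the list was -0.58 in upper and -1.39 in lower molars, against -0.03 and -0.39 over all genes. These list medians are the values of Slc30a1 and Slc39a10, which are genes of the set, so they say nothing of genes outside it.

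Among genes of the Nrf2 oxidative stress response, 11 of 12 passed, and 1 was lower in both jaws, beside 1.59% of all genes. This was Nfe2l2, which encodes Nrf2 itself, at 11.3 FPKM in mutant upper molars, against 24.5 FPKM in control upper molars, and 9.18 FPKM in mutant lower molars, against 24.95 FPKM in control lower molars. It was not counted in lower molars after rescaling by median of ratios. In lower molars alone Gclc, Txnrd1, Gsr and Prdx1 were also lower, of which Prdx1 was lost on rescaling. That made 5 genes of the list lower there as deposited and 3 after rescaling, beside 9.43% and 3.52% of all genes. Prdx1, the most abundant of the list, was at 74.8 FPKM in mutant upper molars, against 73.9 FPKM in control upper molars, and 44.3 FPKM in mutant lower molars, against 102.6 FPKM in control lower molars. The list's median was -0.25 in upper and -0.73 in lower molars, against -0.03 and -0.39 over all genes.

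Genes that handle other metals, and genes of the pathways that induce metallothioneins, were looked at in the same way, beside 3.26% of all genes lower in upper molars and 9.43% in lower molars. Copper handling genes (9 of 11 passed) had 0 counted in either jaw, with Sod1, the copper and zinc superoxide dismutase gene, at 195.9 FPKM in mutant upper molars, against 212.0 FPKM in control upper molars, and 183.5 FPKM in mutant lower molars, against 236.3 FPKM in control lower molars. Atox1, a copper chaperone gene, was at 40.7 FPKM in mutant upper molars, against 48.0 FPKM in control upper molars, and 62.7 FPKM in mutant lower molars, against 46.8 FPKM in control lower molars. Its genotype difference was more negative in upper than in lower molars by at least 1 after rescaling, and not as deposited (-0.64). Iron and manganese handling genes (9 of 11 passed) had 0 counted in both jaws, and in lower molars the transferrin receptor gene Tfrc and the ferritin gene Ftl1 were lower as deposited and neither was after rescaling. Ftl1 was at 955.1 FPKM in mutant upper molars, against 867.1 FPKM in control upper molars, and 504.3 FPKM in mutant lower molars, against 1025 FPKM in control lower molars. The other ferritin gene, Fth1, was at 202.6 FPKM in mutant upper molars, against 296.9 FPKM in control upper molars, and 160.9 FPKM in mutant lower molars, against 306.6 FPKM in control lower molars, and was not counted. Glucocorticoid response genes (7 of 9 passed) had 0 counted in both jaws, and in lower molars Fkbp5 and Sgk1 were lower, of which Fkbp5 alone was after rescaling. The most abundant of them, Tsc22d3 and Dusp1, were not counted. Tsc22d3 was at 5.81 FPKM in mutant upper molars, against 5.34 FPKM in control upper molars, and 2.56 FPKM in mutant lower molars, against 5.12 FPKM in control lower molars. Dusp1 was at 4.04 FPKM in mutant upper molars, against 6.89 FPKM in control upper molars, and 5.05 FPKM in mutant lower molars, against 5.98 FPKM in control lower molars. Genes of the Il6 family and Stat3 (5 of 12 passed) had 0 counted in either jaw. The shared receptor gene Il6st was at 11.1 FPKM in mutant upper molars, against 8.68 FPKM in control upper molars, and 9.66 FPKM in mutant lower molars, against 8.82 FPKM in control lower molars. The kinase gene Jak1 was at 12.1 FPKM in mutant upper molars, against 13.0 FPKM in control upper molars, and 9.84 FPKM in mutant lower molars, against 15.3 FPKM in control lower molars. The medians in upper and lower molars were 0.11 and -0.36 for copper handling and -0.29 and -0.64 for iron and manganese handling. They were -0.65 and -0.66 for the glucocorticoid response and -0.32 and -0.79 for the Il6 family and Stat3. Over all genes they were -0.03 and -0.39.

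The genes whose pattern over the 4 libraries was most like that of a counted gene were found by the Euclidean distance between profiles of log2(FPKM + 1), each centred on its own mean, with genes of the set left out of the search. Nearest to Slc39a10 was the angiogenic growth factor gene Vegfa, at a distance of 0.0155, followed by Bcor (0.0885) and Gm9790 (0.111). Vegfa was at 4.93 FPKM in mutant upper molars, against 11.9 FPKM in control upper molars, and 2.74 FPKM in mutant lower molars, against 8.84 FPKM in control lower molars. Nearest to Mt2 were the Fgf ligand gene Fgf3 (0.765), the metalloproteinase inhibitor gene Timp1 (0.802) and Mical2 (0.841). Nearest to Mt1 were Igfbp7 (0.823), the cell cycle inhibitor gene Cdkn1a (0.971) and Limch1 (0.977), while Mt2 itself lay at 0.974 from Mt1. The closest profile to Mt1 and Mt2 was therefore far looser than that to Slc39a10, and a distance over 4 libraries says nothing of shared control.

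Values of the libraries as a whole also differed between the groups, and not all in the order seen for Mt1 and Mt2. All 8 dental mesenchyme markers passed the mean of 1 FPKM, and Msx1 itself was at 126 FPKM in mutant upper molars, against 170 FPKM in control upper molars, and 85.9 FPKM in mutant lower molars, against 184 FPKM in control lower molars. That level does not check the genotype labels, because the allele is not named. Of the 8, Dlx2 was lower in both jaws, at 14.7 FPKM in mutant upper molars, against 56.3 FPKM in control upper molars, and 2.66 FPKM in mutant lower molars, against 34.7 FPKM in control lower molars. Msx1, Dlx1 and Dlx2 were lower in lower molars as deposited, and Dlx2 alone was after rescaling. Summed coverage over transcripts lay between 264 and 410 megabases, lowest in mutant lower molars. Erythroid markers (8 of 10 passed) summed to 631 FPKM in mutant upper molars, against 920 FPKM in control upper molars, and 811 FPKM in mutant lower molars, against 1184 FPKM in control lower molars. Like Mt1 and Mt2, this sum was lower in the mutant of each jaw and higher in lower than in upper molars of either genotype. Single markers did not all follow the sum. Hbb-b2 was at 83.6 FPKM in mutant lower molars, against 51.5 FPKM in control lower molars. Hbb-b1 was at 53.6 FPKM in mutant lower molars, against 91.4 FPKM in mutant upper molars.

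Epithelium markers (8 of 12 passed) went the other way between genotypes, summing to 56.8 FPKM in mutant upper molars, against 33.7 FPKM in control upper molars, and 74.6 FPKM in mutant lower molars, against 54.4 FPKM in control lower molars. Cartilage markers (3 of 8 passed) summed to 15.5 FPKM in mutant upper molars, against 6.75 FPKM in control upper molars, and 21.2 FPKM in mutant lower molars, against 5.73 FPKM in control lower molars. Endothelial markers (10 of 10 passed) summed to between 48.7 and 60.7 FPKM and macrophage markers (10 of 13 passed) to between 38.9 and 58.8 FPKM, with 0 genes of either list counted in either jaw as deposited. After rescaling the macrophage genes C1qc and Mrc1 were higher in lower molars. Osteoblast markers (6 of 8 passed) summed to between 178 and 254 FPKM, pericyte and smooth muscle markers (3 of 7 passed) to between 9.59 and 25.04 FPKM, and neuron and glia markers (2 of 11 passed) to between 8.25 and 23.0 FPKM. Of the osteoblast markers, Ibsp and Ifitm5 were higher and Spp1 lower in the mutant in both jaws. Spp1 was at 0.0217 FPKM in mutant upper molars, against 5.70 FPKM in control upper molars, and 0.0213 FPKM in mutant lower molars, against 6.92 FPKM in control lower molars. The epithelium gene Krt15 and the cartilage gene Hapln1 were also higher in both jaws. No gene of the other cell lists was counted in both jaws. No marker of these lists that the tables hold was at 0 in all 4 libraries. The part of these cells in the metallothionein levels was not tested.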

How the data were processed

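RNA of laser-captured molar mesenchyme was sequenced after NuGEN Ovation amplification, per the labels' protocols, in 4 groups of 1 library. Alignment was to mm9 with TopHat 1.4.1 and Bowtie 0.12.7, per the submitters' processing notes. Per the file headers, the authors deposited FPKM values and a coverage signal in Cufflinks format for 28107 transcript entries. No source used here gives the Cufflinks version. Coverage was a constant multiple of FPKM within a library (0.812 to 1.09), and whole reads could not be recovered, so no count model was used. Strand was not known to be kept.

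FPKM was summed per gene name. Genes with a failed estimate in any library (66) and names of small RNAs (715) were left out, and a mean of at least 1 FPKM left 10537 genes. The pseudocount was 1 FPKM. A difference of log2(FPKM + 1) of at least 1 in size was counted, with no test. Start positions were raised by 1 to count from 1. Sequences are from RefSeq (GRCm38.p6), where 7 of the 8 genes had a promoter entry. Shared runs and exons are from GENCODE M21. Python 3.11.15, pandas, R 4.3.3 and limma 3.58.1 were used, and the counting rule and the limma model were run on simulated data. The simulated libraries had no shift between them and no genotype-by-jaw effect, so they were simpler than these data. That run checks the code and not the accuracy of the counts given here.

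The genes and lists were chosen with earlier results of these data known. The genes named outside the set follow a rule: SLC30, SLC39 and metallothionein genes counted in any comparison, in each other list the genes counted in both jaws and the 2 most abundant, and the 3 nearest profiles to each counted gene. Others, such as the neighbours of Mt1, Gclc, Tfrc, Fkbp5, transporters below the limit and genes at 0, were named after their values were seen. Of the cell marker lists, the sums and the genes counted in both jaws are given, with a few others named after their values were seen.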

Additional observations from a re-analysis of the deposited data

How the results depend on the processing

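The 8 genes' differences were recomputed with other pseudocounts, filters and scalings and with Mt1 and Mt2 summed, which gave 288 values. Of these 274 stayed on their side of the limit, 5 passed it newly, 9 no longer did, and no counted value changed sign. Mt1 and Mt2 were counted in both jaws in all of them. Slc39a10 was not counted in upper molars with a pseudocount of 5 FPKM (-0.91), and equal upper quartiles or equal totals ended its count in lower molars. Genes of the set counted between jaws of the mutant were 2 with a pseudocount of 0.1 FPKM or any of the 3 rescalings and 0 with a pseudocount of 5 FPKM, which also left 0 for the difference between jaws of the genotype difference. Mean filters apart, each of these settings kept 10537 genes.

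Counts over all genes moved more. For genotype in both jaws, upper and lower molars, the jaws of the mutant, the jaws of the control and the genotype-by-jaw difference, in that order, a pseudocount of 0.1 FPKM gave 367, 742, 1883, 877, 320 and 1544 genes, and a pseudocount of 5 FPKM gave 80, 181, 349, 100, 68 and 190. A mean of at least 5 FPKM left 5333 genes, so its counts are out of fewer genes and are not shares. It gave 130 for both jaws, 266 for upper molars, 101 for the jaws of the control and 479 for genotype-by-jaw. For lower molars, the jaws of the mutant and genotype-by-jaw, median of ratios gave 579, 240 and 449 genes and equal upper quartiles 570, 241 and 453. Equal totals gave 561 for lower molars and 453 for genotype-by-jaw. A limma model over all 4 libraries with jaw as a term counted 585 genes at an adjusted p under 0.05. Upper and lower molars stood in as replicates of each genotype in that model, because no group was replicated. Its p-values therefore weigh the genotype difference against disagreement between the jaws, and variation between animals was not measured. The model was not applied to the 8 genes, which were chosen on their values. The cause of these moves was not tested.

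No paired analysis was possible because the labels give no replicate numbers, so jaw, a term of the limma model, was the 1 block used. Depth limits Mt2 in mutant upper molars most, and the transcript splits of Slc39a8 and Slc39a14.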
